A study of Mus musculus with 25 samples.

Results

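The proteasome is the ATP-driven protease that degrades ubiquitin-tagged proteins, and its constitutive subunits are described here across surgically made intestinal loops of the mouse. Members were the genes whose symbol on the array begins with Psma, Psmb, Psmc or Psmd followed by a number, without the inducible subunits Psmb8, Psmb9 and Psmb10, and whose signal was detected on at least 3 of 25 arrays at a detection p under 0.05. Of 34 matching symbols, 31 met the rule, out of 11369 genes tested in all. They comprised 4 alpha and 7 beta subunits of the core particle, 6 ATPases and 3 other subunits of the base, 7 subunits of the lid, and 3 chaperones of base assembly that carry Psmd names (Psmd5, Psmd9 and Psmd10). The last member, Psmc3ip, is a factor of meiotic recombination that meets the rule by its letters only and is not a subunit, so 27 members were subunits. Psma1, Psma3 and Psma6 each had a single probe that was detected on 0 arrays, with mean signals of 97.01, 99.36 and 98.62, and did not meet the rule. Psmc6 lay just inside it, detected on 4 arrays (2 of sham cecum and 1 each of wild type and IL10 knockout self-filling loops) with a mean signal of 109.44. Psmd6 and Psmd9 were detected on 24 arrays each and the other 28 members on all 25.

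The core particle is a barrel of stacked rings, in which alpha subunits form the gated ends and beta subunits enclose the proteolytic sites. The regulatory particle caps it: its lid removes ubiquitin, its base holds receptors for ubiquitin, and a ring of ATPases unfolds the substrate and threads it into the core. Cells raise many subunit genes together when proteasome capacity is limiting, through the transcription factor NFE2L1, and the intestinal epithelium is a tissue of rapid renewal.

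Gene expression had been measured with Illumina bead arrays on total RNA of C57Bl/6 mice, which per the study's design text were females aged 6 to 8 weeks, given a gel diet for 5 days before the operation. A 2.5 cm piece of ileum was taken out 3 cm from the ileocecal valve and the bowel was rejoined, and tissue was collected 5 weeks later. A self-filling loop is made so that content flows in and stands, whereas a self-emptying loop drains. The wild type was represented by 4 self-emptying loops, 3 self-filling loops and, from sham operations, 3 samples of ileum and 3 of cecum. Each of the labels IL10 knockout and TLR4 knockout was represented by 3 loops of either type. The labels name no allele and no promoter, do not say whether the mucosa or the full wall was taken, and do not say that replicates were separate animals, so the p-values reflect variation among these samples that could be technical in origin.

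Each array detected 47.2 to 53.0% of the 25697 probes, with a median of 33 to 39 beads a probe, and precision is set by how few arrays each group has. For Tlr4, the brighter probe was above background on 1 of 6 arrays labelled TLR4 knockout and on all 19 others. The Il10 probe was above background on each of the 6 arrays with the IL10 knockout label, at log2 levels of 6.65 ± 1.01 (SD, n = 3) in self-emptying and 7.34 ± 0.10 (SD, n = 3) in self-filling loops, and on 0 arrays of the other groups. This goes against that label, and whether the probe lies within the disrupted part of the gene is not known here. The samples are therefore called "labelled IL10 knockout". All 6 TLR4 knockout arrays carry codes of a series MX and the other 19 codes of a series MW, so that this genotype and the array series cannot be told apart. The 2 ileal enterocyte markers measured of 5 listed had a summed signal of 38570 to 41850 in sham ileum and 193.5 to 281.2 in sham cecum, as the tissue labels have it. In bulk tissue, fewer cells of a type and less RNA per cell cannot be told apart.

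Promoter sequences are shown for 5 members, chosen after their values were seen: the catalytic subunits Psmb5 and Psmb6, the structural subunit Psmb3 and the lid subunits Psmd12 and Psmd13, the last without either motif. RefSeq entries (GRCm38.p6, 250 bases before to 50 after the gene's start, written 5' to 3' on the gene's strand) matched 26 of the 31 members with 27 windows. Psmb1, Psmb2, Psmb7, Psmc3 and Psmd7 had no entry. Capitals mark TGACNNNGC, the core of the antioxidant response element to which NFE2L1 and NFE2L2 bind, or CCAAT, which the factor NF-Y binds, on either strand.
Psmb5 (chr14:54617946-54618245, minus strand): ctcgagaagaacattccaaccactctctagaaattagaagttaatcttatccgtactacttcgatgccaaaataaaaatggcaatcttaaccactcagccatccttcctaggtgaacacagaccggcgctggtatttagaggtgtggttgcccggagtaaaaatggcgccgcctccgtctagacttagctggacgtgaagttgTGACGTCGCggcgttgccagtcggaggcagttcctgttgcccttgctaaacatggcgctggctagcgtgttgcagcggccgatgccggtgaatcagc
Psmb6 (chr11:70525107-70525406, plus strand): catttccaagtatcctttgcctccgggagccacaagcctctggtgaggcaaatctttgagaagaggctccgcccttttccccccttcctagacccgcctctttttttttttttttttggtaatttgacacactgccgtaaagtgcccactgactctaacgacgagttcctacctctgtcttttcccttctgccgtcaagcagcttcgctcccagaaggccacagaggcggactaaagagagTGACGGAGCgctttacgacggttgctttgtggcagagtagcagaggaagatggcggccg
Psmd12 (chr11:107479278-107479577, plus strand): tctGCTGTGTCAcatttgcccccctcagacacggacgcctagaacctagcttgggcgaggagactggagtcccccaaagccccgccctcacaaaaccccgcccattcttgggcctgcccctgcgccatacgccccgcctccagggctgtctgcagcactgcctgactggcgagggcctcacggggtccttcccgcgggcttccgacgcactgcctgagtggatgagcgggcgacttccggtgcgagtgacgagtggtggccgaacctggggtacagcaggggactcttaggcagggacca
Psmb3 (chr11:97703184-97703483, plus strand): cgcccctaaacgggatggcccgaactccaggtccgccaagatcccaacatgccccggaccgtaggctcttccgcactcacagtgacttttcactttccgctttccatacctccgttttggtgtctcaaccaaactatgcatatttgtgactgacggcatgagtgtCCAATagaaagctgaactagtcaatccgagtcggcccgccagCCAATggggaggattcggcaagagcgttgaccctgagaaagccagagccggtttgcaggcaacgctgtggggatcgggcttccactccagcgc
Psmd13 (chr7:140882144-140882443, plus strand): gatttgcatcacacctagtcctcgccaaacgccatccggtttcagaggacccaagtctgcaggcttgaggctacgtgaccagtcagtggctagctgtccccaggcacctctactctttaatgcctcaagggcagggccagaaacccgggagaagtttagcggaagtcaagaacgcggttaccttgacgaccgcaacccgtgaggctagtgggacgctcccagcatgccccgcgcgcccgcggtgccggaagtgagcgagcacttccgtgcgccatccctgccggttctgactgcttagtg

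In Psmb5 the letters TGACGTCGC began at base -47 relative to the gene's start, and in Psmb6 TGACGGAGC began at -9. In Psmd12 the match lay on the opposite strand at -247. Psmb3 held CCAAT at -85 and at -43, and the Psmd13 window held neither motif. TGACNNNGC was present in 5 of the 27 member windows (18.5%; Psmb5, Psmb6, Psmc6, Psmd9 and Psmd12) and in 12.4% of all 32851 promoter windows. CCAAT was present in 9 member windows (33.3%) and in 37.4% of all windows, so the share among members was close to that of promoters in general for this motif. A match is a description of these windows and shows no binding.

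In wild type self-filling loops, constitutive proteasome transcripts stood above those of sham ileum by a small and rather even amount. The log2 fold change was above 0 for 30 of the 31 members, with a median of 0.34, against 54.1% of all genes above 0 and a median of 0.04. At an adjusted p under 0.05 (limma across all genes, Benjamini-Hochberg), 13 of the 31 members rose (41.9%) and 0 fell, while 19.8% of all genes passed, 10.5% higher and 9.25% lower. The quartiles of the members' changes were 0.212 and 0.444, and those of all genes -0.256 and 0.285. Without overlap of the arrays, 25 members were higher and 1 lower, beside 23.4% and 20% of all genes.

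**Figure D1:**
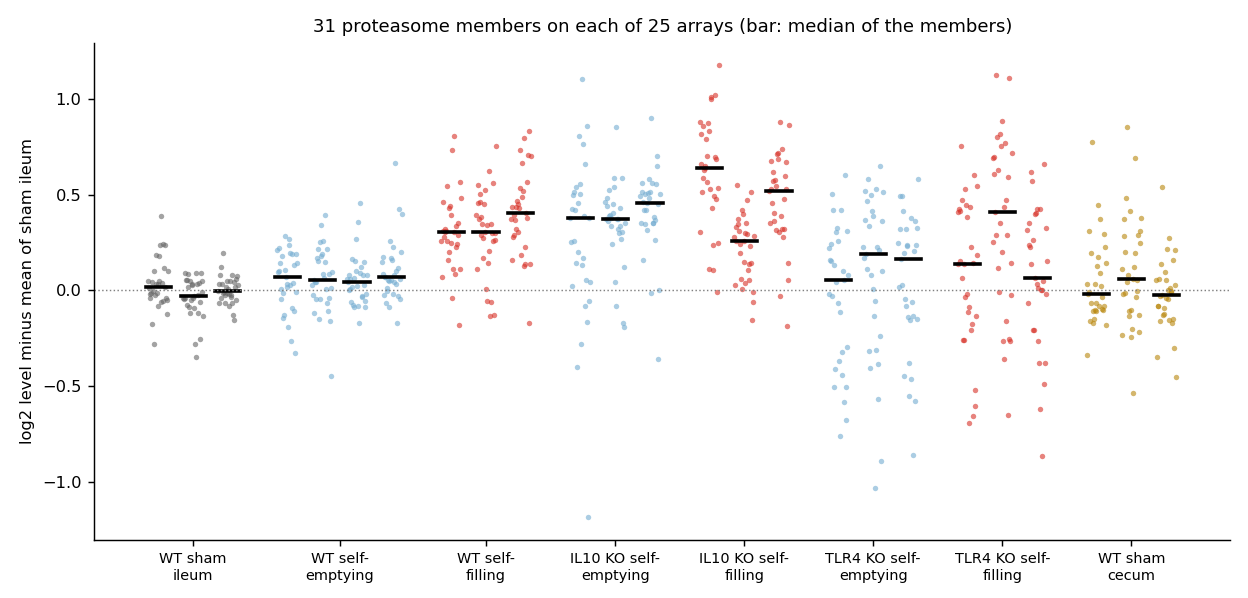
Normalized log2 level of each of the 31 members on each of the 25 arrays, minus its mean in sham ileum (vertical axis, log2 units). Points are members and bars are the median of the members on an array; the bars of wild type self-filling loops lie between 0.302 and 0.406 and those of wild type self-emptying loops between 0.041 and 0.068.

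On single arrays, the median member lay 0.302, 0.303 and 0.406 above its sham ileum mean in the 3 wild type self-filling loops. In the 4 wild type self-emptying loops it lay 0.068, 0.056, 0.041 and 0.067 above it, and in the sham ileum arrays themselves at 0.018, -0.030 and -0.003. The self-filling arrays were thus apart from both other groups. Between 27 and 30 members exceeded their sham ileum mean on each self-filling array, and 21 to 23 on each self-emptying array.

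Within the core particle, 5 of the 7 beta subunits rose in self-filling loops over sham ileum, with a median change of 0.36 over the ring. Psmb5, which carries the chymotrypsin-like site, had log2 levels of 8.45, 8.82 and 8.93 in sham ileum and of 9.28, 9.02 and 9.17 in self-filling loops. All 3 loops lay above all 3 sham samples, and the change was 0.42 ± 0.14 (SE, adjusted p = 0.0402 in limma), or 1.34-fold. Psmb2, a structural beta subunit, read 11.21, 11.44 and 11.50 in sham ileum and 11.70, 11.88 and 11.77 in self-filling loops (0.41 ± 0.12). A further Psmb2 probe, detected on every array, changed by only 0.04 in the same comparison, so the rise of Psmb2 rests on the brighter probe. Psmb3, Psmb4 and Psmb1 rose by 0.38, 0.34 and 0.31. The other catalytic subunits did not pass: Psmb6, with the caspase-like site, changed by 0.36 ± 0.14 (adjusted p = 0.0701 in limma) and Psmb7, with the trypsin-like site, by 0.21 ± 0.17 (adjusted p = 0.407 in limma), with 0.44 and 0.72 on its other probes.

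Of the 4 alpha subunits measured, Psma5 rose. Its log2 levels were 12.02, 12.12 and 11.97 in sham ileum and 12.50, 12.49 and 12.47 in self-filling loops, a tight separation of the groups. The change of 0.45 ± 0.10 (1.37-fold, adjusted p = 0.00576 in limma) had the smallest p among the members. Psma2 (0.34) and Psma7 (0.38) had changes of nearly that size with adjusted p-values of 0.0555 and 0.109 in limma, and Psma4 changed by 0.11. A further Psma7 probe of nearly the same mean signal changed by only 0.14.

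In the base of the regulatory particle, 3 of the 6 ATPases rose, with a median change of 0.37. Psmc3 read 9.69, 9.73 and 9.69 in sham ileum and 10.15, 10.23 and 10.24 in self-filling loops (0.50 ± 0.13, adjusted p = 0.0124 in limma). Psmc2 read 11.47, 11.39 and 11.46 against 11.87, 11.89 and 11.87 (0.44 ± 0.11, adjusted p = 0.00774 in limma). Both ATPases separated the groups by more than the range within either. Psmc4 rose by 0.48, and Psmc1 and Psmc5 had values of 0.31 and 0.15. Psmc6 was detected on no sham ileum array and is given no fold. Among the other base subunits, Psmd1, a large scaffold, rose by 0.58 ± 0.18 (adjusted p = 0.0255 in limma), while Psmd2, its partner scaffold, and Psmd4, a receptor for ubiquitin, had values of 0.26 and 0.21.

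In the lid, 2 of 7 subunits rose. Psmd13 read 10.90, 10.83 and 10.93 in sham ileum and 11.24, 11.45 and 11.45 in self-filling loops, without overlap (0.49 ± 0.14, adjusted p = 0.0177 in limma). Psmd6 had the largest change of any member, 0.74 ± 0.18 (1.67-fold, adjusted p = 0.00749 in limma), from a dim probe near background: its log2 levels were 5.66, 4.92 and 5.24 in sham ileum and 6.08, 5.90 and 6.07 in self-filling loops. A further Psmd6 probe was detected on 5 of 25 arrays and gives no check. Psmd14, the deubiquitinase of the lid, had a value of 0.42 that did not pass (adjusted p = 0.153 in limma), and Psmd7, its partner, one of 0.03. Psmd11 changed by 0.19 on its main probe and by 0.96 on a fainter probe.

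None of the 3 assembly chaperones rose over sham ileum, with changes of 0.55 for Psmd9 (adjusted p = 0.0508 in limma), 0.18 for Psmd10 and -0.16 ± 0.23 for Psmd5, the lowest value of any member. Psmc3ip rose by 0.65 ± 0.22 (adjusted p = 0.0427 in limma). Without it and the chaperones, 12 of the 27 subunits were called and their median was unchanged at 0.34.

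**Figure D2:**
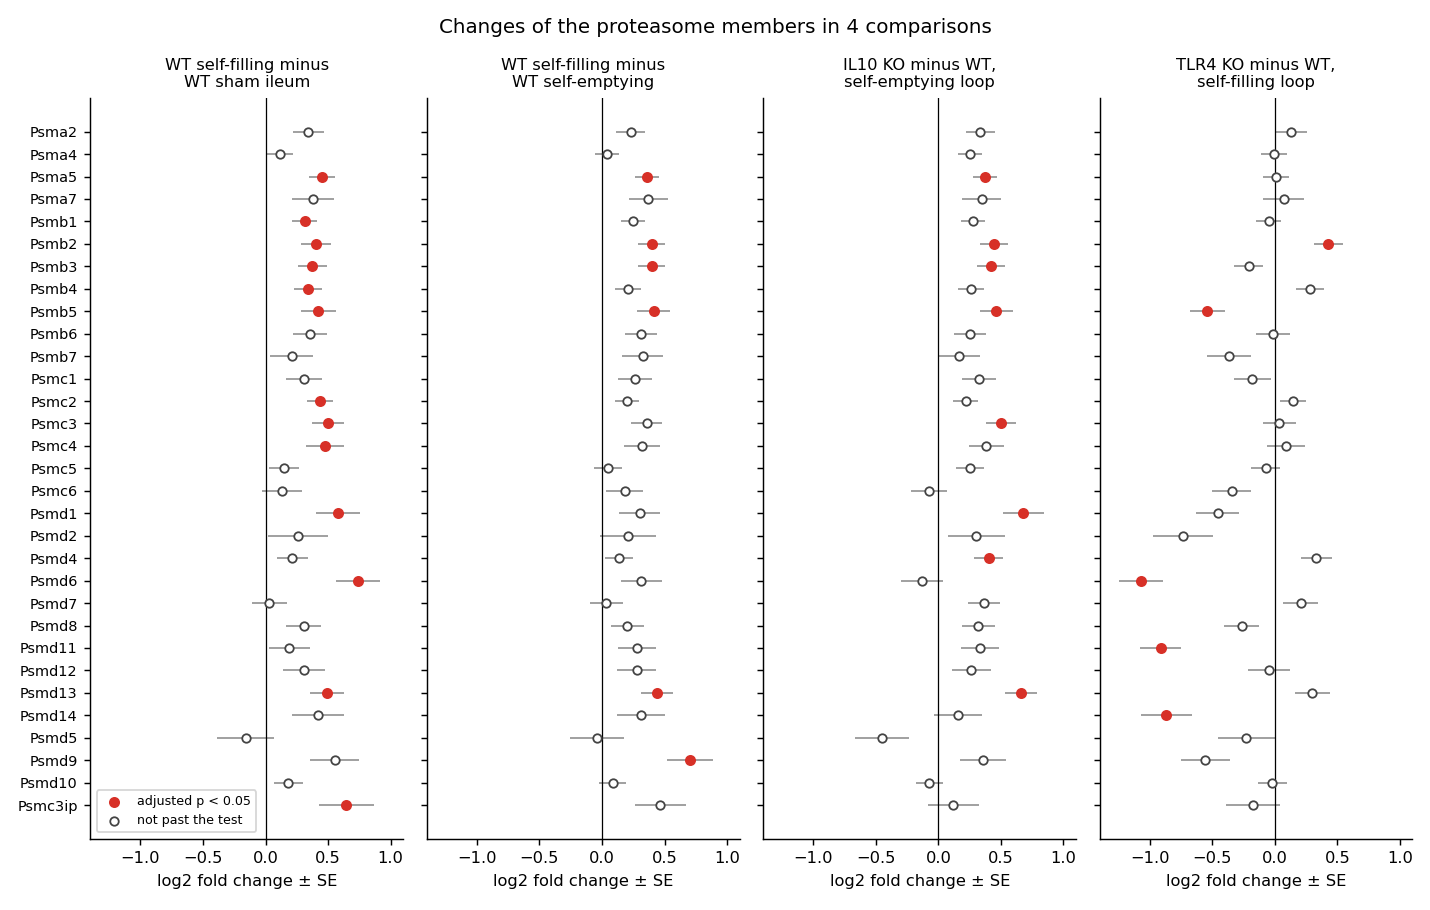
Log2 fold change of each member with its SE (horizontal axis) in 4 comparisons, one panel each, with filled points where the adjusted p was under 0.05. In the first panel 30 of 31 points lie right of 0, and in the panel of TLR4 knockout against wild type they lie on both sides, from -1.07 to 0.43.

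The number of calls depended on single arrays, and the size of the shift on the scaling. For this and later comparisons, the share of all genes called is given for the main fit only. Leaving out sham ileum replicate 2 or self-filling replicate 3 left 3 calls, leaving out sham ileum replicate 1 left 6, and leaving out sham ileum replicate 3 or self-filling replicate 1 left 7, whereas the median member change stayed between 0.32 and 0.36. Under median scaling it was 0.67 with all genes at 0.16. Of the 8 named members that were called, Psma5 and Psmc2 passed in each of the 6 fits without an array. The ratio of the 95th percentile of signal to the median was 15.3 to 16.3 on the self-filling arrays and 12.39 to 13.02 on those of sham ileum; with it as a covariate 6 members passed. Cycling-cell markers moved with the members: 2 of the 5 measured rose (median 0.68), and their summed signal was 1821 to 2416 in self-filling loops and 1124 to 1484 in sham ileum. T cell markers fell (4 of 5), as did 3 of 5 macrophage markers, and the 6 epithelial markers had a median of 0.18 with 1 lower. The 2 adipocyte markers measured fell (median -4.78), 1 of 6 smooth muscle markers fell and 2 of 5 large intestine markers rose. The part of these cells in the members' shift was not tested.

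Wild type self-emptying loops, which carry the same surgery without standing content, are the control for the operation. Against sham ileum, no member was called (2 at an unadjusted p under 0.05), against 0.0088% of all genes, which is 1 gene (896 at an unadjusted p under 0.05). The median member change was 0.07 (-0.03 under median scaling), with 24 of 31 above 0. Psmd6 (0.43 ± 0.17, adjusted p = 0.52 in limma) and Psmc2 (0.24 ± 0.10, adjusted p = 0.559 in limma) had the smallest p-values. Without overlap, 3 members were higher and 1 was lower, beside 6.45% and 5.3% of all genes.

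Set against self-emptying loops, which share the operation, the self-filling loops of wild type mice again had 30 of 31 members above 0, with a median of 0.28 against 0.02 over all genes. This comparison uses the same self-filling arrays as the one above, so the values are given side by side and not as a repeat. Of the members, 6 rose (19.4%) and 0 fell, where 11.5% of all genes passed, 5.95% higher and 5.56% lower. Without overlap, 18 members were higher and 0 lower, beside 13.9% and 11.4% of all genes.

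Among the 6 calls, 3 were beta subunits. Psmb5 read 8.59, 8.88, 8.75 and 8.74 in self-emptying loops, all below the 3 self-filling loops given above (0.42 ± 0.13, adjusted p = 0.0461 in limma). Psmb2 read 11.34, 11.33, 11.44 and 11.45 (0.40 ± 0.11), with the other probe at 0.12, and Psmb3 rose by 0.40. For Psma5 the self-emptying levels were 12.26, 12.09, 12.04 and 12.12, again below every self-filling loop (0.36 ± 0.10, adjusted p = 0.022 in limma). Psmd13 stood at 11.02, 10.97, 10.92 and 10.86 (0.44 ± 0.13, adjusted p = 0.0325 in limma). The chaperone Psmd9 had the largest change, 0.70 ± 0.18 (adjusted p = 0.02 in limma), from a dim probe at 5.19, 4.75, 5.11 and 5.15 in self-emptying and 5.76, 5.46 and 6.03 in self-filling loops; its other probe changed by 0.27. None of the 6 ATPases passed, with a median of 0.23, and Psmd5 was again lowest at -0.04 ± 0.21.

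**Figure D3:**
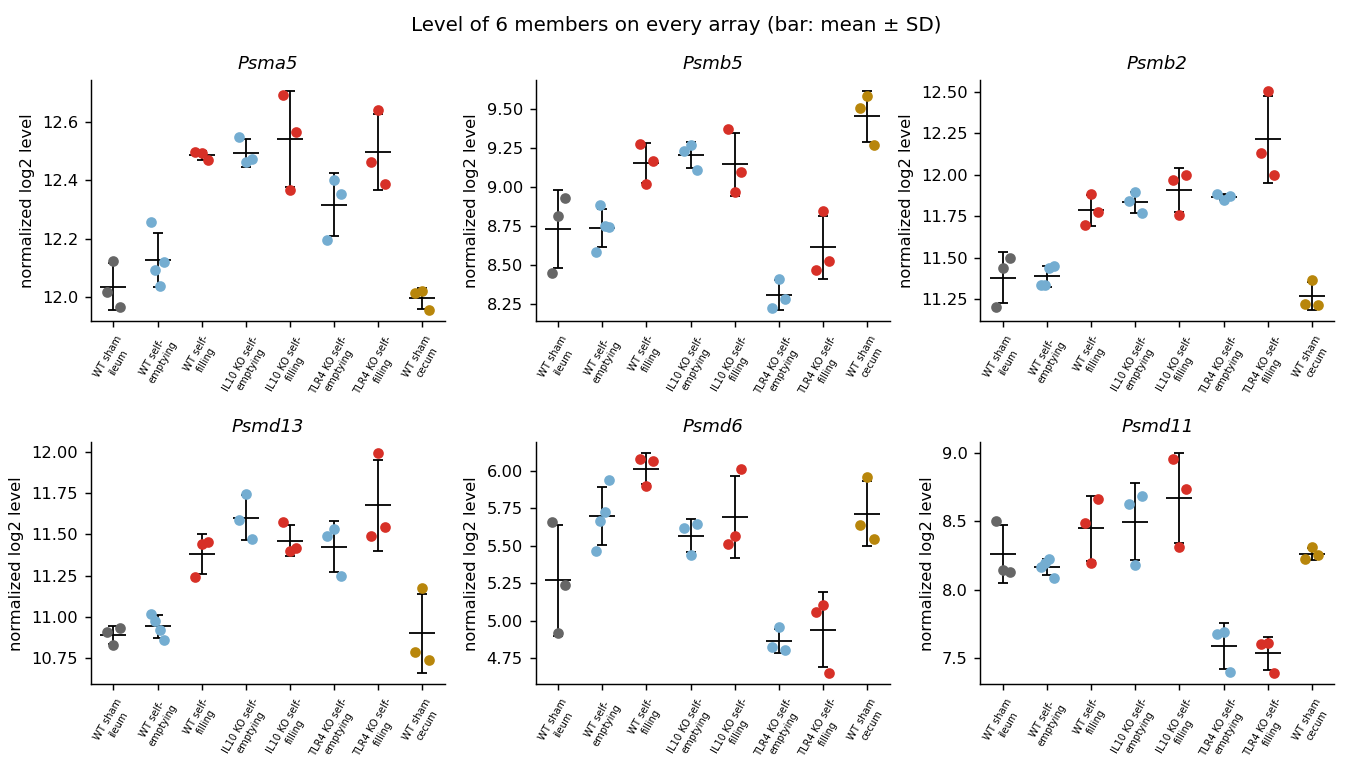
Normalized log2 level of 6 members on every array by group (points), with the mean and SD. Psma5 lies at 12.47 to 12.50 in the 3 wild type self-filling loops and at 12.04 to 12.26 in the 4 self-emptying loops. Psmd11 is lowest on the TLR4 knockout arrays. Psmd6 has its lowest group means there, but the lowest sham ileum array, at 4.92, lies among them.

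Each of these 6 calls was lost in at least 1 fit that left out an array. There were 0 calls without self-emptying replicate 2 or without self-filling replicate 3, 2 without self-filling replicate 1 or self-emptying replicate 3, and 3 without self-filling replicate 2 or self-emptying replicate 4. Self-emptying replicates 2 and 3 had signal ratios of 9.499 and 10.232, beside 15.331 and 13.998 for replicates 1 and 4, and leaving both out, a choice made after the data were seen, left 0 calls. With the ratio as a covariate there were 0 calls and the median was 0.17, while scaling arrays to their medians gave 20 calls and a median of 0.65 with all genes at 0.21. The shares of all genes called in these fits are not given. Within runs of 8 array numbers, the median member difference was 0.24 and 0.32, with 29 and 28 members above 0. Beside this, 3 of 5 cycling-cell markers rose (summed signal 980.1 to 1490 in self-emptying loops), as did 2 of 6 epithelial and 2 of 5 large intestine markers. T cell markers fell in 3 of 5 (median -1.30) and adipocyte markers in 1 of 2 (median -4.64). The part of these cells was not tested.

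In self-emptying loops labelled IL10 knockout, 27 of 31 members were above wild type, with a median of 0.32 against 0.02 for all genes. At the same threshold 8 rose (25.8%) and 0 fell, where 9.53% of all genes passed, 5.22% higher and 4.3% lower, and 17 were higher without overlap (11.7% of all genes) and 0 lower (8.79%). The wild type self-emptying arrays of the stasis comparison serve here too.

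The calls fell on most parts of the complex. The lid subunit Psmd13 read 11.75, 11.47 and 11.59 in self-emptying loops labelled IL10 knockout, above all 4 wild type ones (0.66 ± 0.13, 1.58-fold, adjusted p = 0.00318 in limma). Psmd1 read 8.10, 7.85 and 7.90 against 7.27, 7.25, 7.36 and 7.22 in wild type (0.68 ± 0.16, adjusted p = 0.0131 in limma). Among base subunits Psmc3 rose by 0.50 and Psmd4 by 0.40, and in the core Psmb5 rose by 0.46, Psmb2 by 0.44 (0.10 on its other probe), Psmb3 by 0.42 and Psma5 by 0.37. Psmb5 levels were 9.27, 9.11 and 9.23, within the range of wild type self-filling loops. The lowest member was again Psmd5, with -0.45 ± 0.21 (adjusted p = 0.203 in limma), and the 3 chaperones had a median of -0.07.

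The count was 2 without IL10 knockout self-emptying replicate 1 and 5 without its replicate 3 or without wild type self-emptying replicate 3 or 4. Psmd13 was the only one of the 8 called members to pass in all 7 fits without an array, and the median stayed between 0.27 and 0.37. Without wild type self-emptying replicates 2 and 3 there were 2 calls. Array weights gave 18 calls, median scaling gave 1, and a fit on these groups alone gave 2. The shares of all genes called under these fits are not given, so such counts do not set the members apart from other genes. Within runs of array numbers the median member difference was 0.41, 0.26 and 0.30. Cycling-cell markers rose in 3 of 5 (summed signal 2239 to 2778 against 980.1 to 1490 in wild type), and 2 of 3 neutrophil markers rose (389.3 to 3231 against 76.02 to 79.70, with S100a9 detected on no wild type self-emptying array). Of 5 large intestine markers 2 rose and 1 fell, and 1 of 6 epithelial markers fell. The part of all these markers was not tested.

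The difference between filling and emptying was not called for any member in loops labelled IL10 knockout. No member passed, while 4.17% of all genes did, 1.94% higher and 2.23% lower. At an unadjusted p under 0.05 there was 1 member, beside 2336 of all 11369 genes. The median was 0.09, with 22 of 31 above 0. Without overlap, 0 members were higher and 1 was lower, beside 9.55% and 11.8% of all genes. Psmc3ip (0.48 ± 0.22, adjusted p = 0.222 in limma) and Psmd5 (0.46 ± 0.23, adjusted p = 0.264 in limma) had the smallest p-values. The 3 self-filling arrays were spread widely, with the median member 0.638, 0.257 and 0.519 above its sham ileum mean, and the self-emptying arrays lay at 0.376, 0.372 and 0.455 between them. The test of the difference itself, the stasis change in loops labelled IL10 knockout minus that in wild type, had a median of -0.15 over members, with 25 of 31 below 0. It called no member, beside 2.33% of all genes, 1% higher and 1.33% lower. At an unadjusted p under 0.05 it had 5 of 31 members, beside 2238 of all 11369 genes. Psmd13 came closest, at -0.58 ± 0.19 (adjusted p = 0.0987 in limma), followed by Psmd9 at -0.72 ± 0.27 (adjusted p = 0.146 in limma), whose other probe gave 0.06. With array weights both passed, Psmd13 at -0.56 and Psmd9 at -0.95, and under median scaling the median was -0.46 with all genes at -0.18.

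Between self-filling loops labelled IL10 knockout and wild type ones, no member passed, beside 12.5% of all genes, 5.93% higher and 6.61% lower. At an unadjusted p under 0.05 there were 0 members, beside 2959 of all 11369 genes. The median was 0.12, with 27 above 0. It was 0.03 without IL10 knockout replicate 1, and -0.09 under median scaling with all genes at -0.13. Without overlap, 2 members were higher and 0 lower, beside 12.5% and 15.6% of all genes. Psmb1 (0.20 ± 0.10, adjusted p = 0.238 in limma) had the smallest p, and its value turned to -0.07 under median scaling. Psmd9 was lowest at -0.36 ± 0.20 on its main probe, and its other probe changed by 0.27. Cell markers did differ here: 5 of 5 T cell, 4 of 5 macrophage, 2 of 3 neutrophil and 1 of 5 large intestine markers were higher. Of 6 epithelial markers 2 were lower, and no measured marker of the other lists passed. The part of these cells was not tested.

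Against wild type, TLR4 knockout loops held members that rose and members that fell, as was so for genes in general. In self-filling loops, 4 members fell and 1 rose (16.1%), where 11.4% of all genes passed, 6.65% lower and 4.74% higher, and the median member change was -0.05, with 11 of 31 above 0. That median was -0.36 under median scaling with all genes at -0.11, -0.15 with array weights and -0.16 without knockout replicate 2. Array weights called 10 members there and 8 in self-emptying loops, with the share of all genes called under weights not given. Without overlap, 4 members were higher and 10 lower, beside 16.2% and 15.1% of all genes. In self-emptying loops 2 rose and 2 fell (12.9%), where 5.65% of all genes passed, 2.08% higher and 3.57% lower, and the median was 0.10, with 8 members higher and 6 lower without overlap (8.79% and 9.04% of all genes).

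The members called lower were lid subunits and the catalytic subunit Psmb5. The 3 base subunits other than ATPases had lower medians than the 7 lid subunits, with none called. Their medians were -0.46 in self-filling and -0.52 in self-emptying loops, beside -0.27 and -0.24 for the lid. They ranged from -0.74 (Psmd2) to 0.33 in self-filling and from -0.70 (Psmd2) to 0.36 in self-emptying loops. Psmd11, a scaffold subunit of the lid, read 7.60, 7.61 and 7.39 in TLR4 knockout self-filling loops and 8.49, 8.20 and 8.66 in wild type (-0.92 ± 0.16, adjusted p = 0.00132 in limma), and its fainter probe changed by -1.04. In self-emptying loops it read 7.68, 7.69 and 7.40 against 8.17, 8.19, 8.22 and 8.09 (-0.58 ± 0.15, adjusted p = 0.0296 in limma). All 6 knockout arrays lay below all 19 others for this gene. Psmd6 fell by 1.07 in self-filling and by 0.83 in self-emptying loops, to 5.06, 5.11 and 4.65 and to 4.83, 4.96 and 4.81, values close to background. Psmd14 fell in self-filling loops, from 9.04, 9.01 and 9.45 in wild type to 8.14, 8.49 and 8.26 (-0.87 ± 0.21, adjusted p = 0.0103 in limma). Psmb5 fell there too, to 8.47, 8.85 and 8.52 (-0.54 ± 0.14, adjusted p = 0.0174 in limma).

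Other subunits stood higher on the TLR4 knockout arrays. Psmb2 read 12.13, 12.51 and 12.00 in self-filling and 11.88, 11.85 and 11.87 in self-emptying loops, above wild type by 0.43 ± 0.12 and 0.48 ± 0.11 (adjusted p = 0.0239 and 0.0142 in limma), and its other probe changed by 0.40 and 0.33. Psmd13 rose in self-emptying loops (0.48 ± 0.13, adjusted p = 0.0306 in limma) and had a value of 0.30 in self-filling loops. Subunits of the same assembled particle thus lay on opposite sides of wild type on these arrays, where genes in general were also called in both directions.

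Since each TLR4 knockout array is of the MX series, these differences cannot be told apart from the array series. In self-filling loops 4 of 6 epithelial markers also fell and 3 of 6 smooth muscle markers rose, with summed signals of 33300 to 36490 against 44090 to 52920 and of 32170 to 43870 against 9843 to 26870. There 1 of 5 large intestine markers fell as well. In self-emptying loops 2 of 6 epithelial markers fell (median -0.29), with summed signals of 34430 to 36730 against 39140 to 42590, and 0 of 6 smooth muscle markers passed. The part of these markers was not tested. Probes of a gene also disagreed here: Psmd12 changed by -0.05 on its main and by -0.93 on a fainter probe. Leaving out wild type self-filling replicate 3 left 2 calls in self-filling loops, and leaving out replicate 1 of either group left 3; in self-emptying loops 2 calls were left without knockout replicate 1 or 2 or wild type replicate 2, 3 or 4. Psmd6 in both loops, Psmd11 in self-filling and Psmb2 in self-emptying loops passed in each fit without an array.

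Between filling and emptying within TLR4 knockout loops, where all arrays are of the MX series, 28 of 31 members were above 0 with a median of 0.13. None passed, beside 0.088% of all genes, 0.044% higher and 0.044% lower. At an unadjusted p under 0.05 there were 2 members, beside 1022 of all 11369 genes. Psmb2 (0.35 ± 0.12, adjusted p = 0.357 in limma) and Psmb5 (0.31 ± 0.14, adjusted p = 0.537 in limma) had the smallest p-values. Without overlap, 3 members were higher and 0 lower, beside 6.89% and 5.44% of all genes. The stasis change in TLR4 knockout minus that in wild type had a median of -0.15 over members and called none (1 at an unadjusted p under 0.05), as it called 0% of all genes (691 at an unadjusted p under 0.05). Psmd9 (-0.68 ± 0.27) and Psmb3 (-0.27 ± 0.16) had the smallest p-values, with adjusted p of 0.799 and 0.865 in limma.

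Few members differed between sham cecum and sham ileum. There, 1 member rose and 1 fell (6.45%), where 27.8% of all genes passed, 16.3% higher and 11.6% lower, and the median was 0.01 (-0.24 under median scaling), with 16 of 31 above 0. Under median scaling 0 members were called, with Psmb5 at 0.41 (adjusted p = 0.166 in limma). In the fit used here Psmb5 read 9.51, 9.59 and 9.27 in cecum, above every other group's mean, and rose by 0.72 ± 0.14 over ileum (1.65-fold, adjusted p = 0.000445 in limma). Psma4 fell by 0.31 ± 0.11 (adjusted p = 0.034 in limma), from 11.91, 11.86 and 11.93 to 11.56, 11.67 and 11.55. Without overlap, 5 members were higher and 4 lower, beside 25.8% and 20% of all genes. Psmb5 passed without any single array, and without cecum replicate 1 or 3 or ileum replicate 2 or 3 it was the only call left, at a count of 1. In cecum 5 of 5 large intestine and 1 of 6 smooth muscle markers were higher. Lower were both ileal enterocyte markers measured and 3 of 5 T cell markers, and of 6 epithelial markers 1 was higher and 3 were lower. The part of these markers was not tested.

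**Figure D4:**
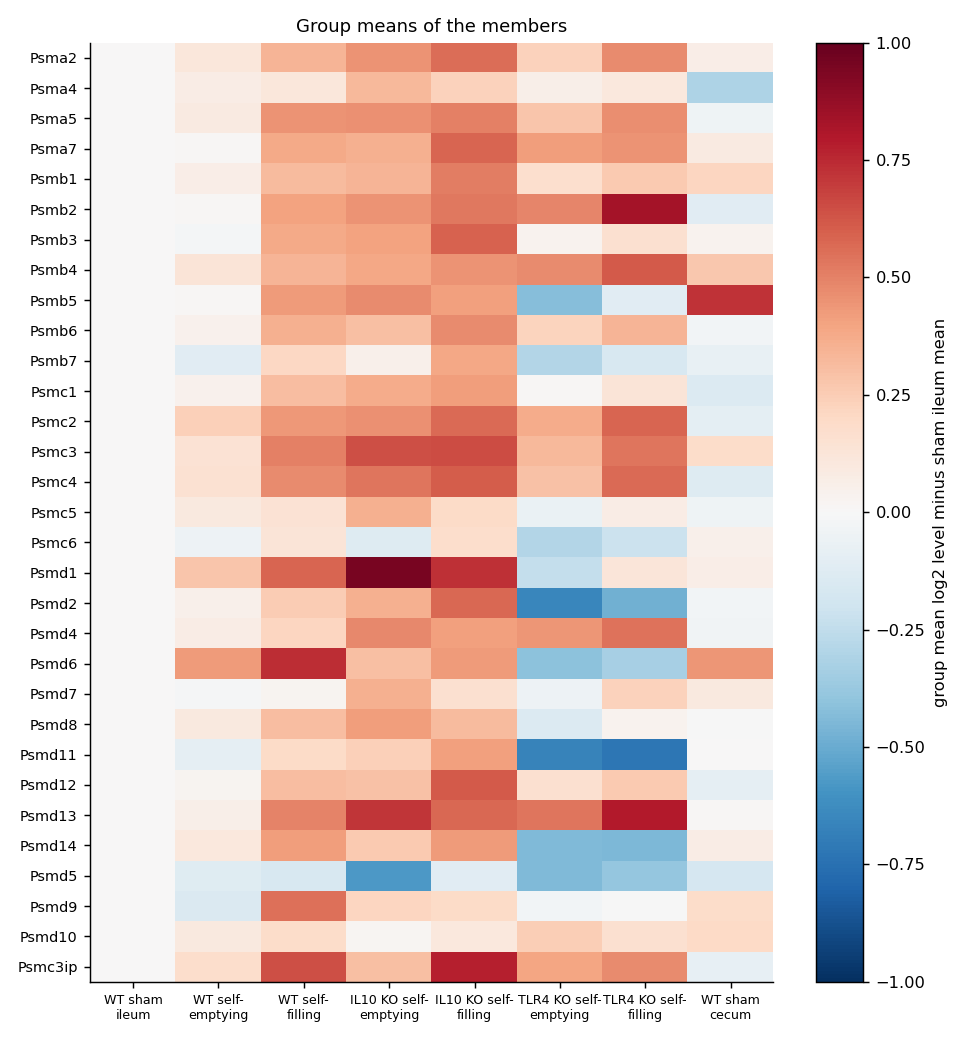
Mean log2 level of each member (rows) in each group (columns), minus its mean in sham ileum, in colour. The columns of wild type self-filling loops and of both loop types labelled IL10 knockout are mostly above 0, and those of TLR4 knockout loops hold both signs. The column of wild type self-emptying loops also has 24 of 31 members above 0, at a smaller median of 0.07.

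Over all 8 groups, the group means of a member spanned a median of 0.63 log2 units, from 0.25 for the chaperone Psmd10 to 1.23 for Psmd2, beside a median spread within groups of 0.16. Over 1 unit was spanned by 5 members: Psmd2, Psmd1, Psmd6, Psmb5 and Psmd11. Self-filling loops labelled IL10 knockout had the highest mean for 16 of the 31 members, wild type self-filling loops for 2 and wild type self-emptying loops for 0. The lowest mean lay in sham cecum for 10, in TLR4 knockout self-emptying loops for 9 and in sham ileum for 7. These spans and counts were not taken over all genes, so they describe the members and do not set them apart from other genes.

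The inducible subunits, which replace Psmb5, Psmb6 and Psmb7 in the immunoproteasome when interferon signals, are no members and are given beside them. In wild type self-filling loops over sham ileum none of the 3 passed, with values of -0.40 for Psmb8, -0.19 for Psmb9 and -0.01 for Psmb10. In self-emptying loops labelled IL10 knockout all 3 rose over wild type: Psmb9 from 9.49 to 11.51 (2.02 ± 0.22, adjusted p = 1.88e-05 in limma), Psmb8 from 7.19 to 8.68 (1.49 ± 0.31) and Psmb10 from 10.90 to 11.59 (0.69 ± 0.15). They also rose in self-filling loops with that label over wild type, by 1.99 for Psmb8, 1.502 for Psmb9 and 0.51 for Psmb10. In sham cecum Psmb8 fell by 0.97 and Psmb9 by 0.84 against ileum, while Psmb5, the constitutive counterpart of Psmb8, was higher there.

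**Figure D5:**
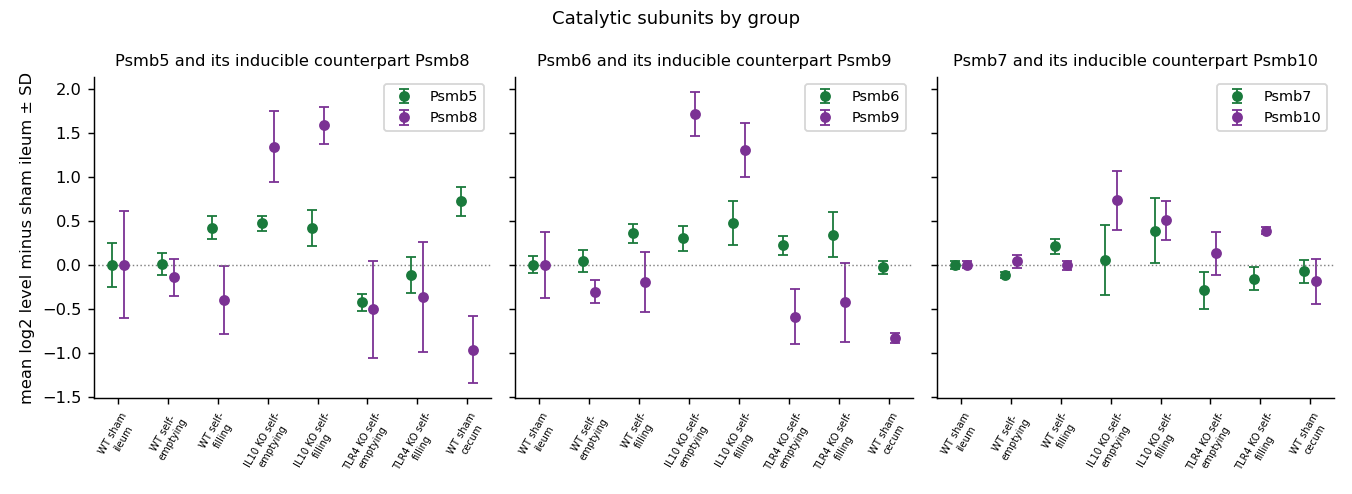
Mean log2 level (points) and SD (bars) of each constitutive catalytic subunit and its inducible counterpart by group, minus the mean of sham ileum. Psmb9 has a mean of 11.51 in self-emptying and 11.10 in self-filling loops labelled IL10 knockout and of 9.79 in sham ileum.

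Other genes of the pathway, 33 measured in 6 lists, moved less evenly. Over sham ileum, wild type self-filling loops had 2 higher and 1 lower, where 10.5% of all genes were higher and 9.25% lower. Psmg3, a chaperone of alpha ring assembly, rose by 0.95 ± 0.17 (adjusted p = 0.00122 in limma), Rps27a, which encodes ubiquitin fused to a ribosomal protein, rose by 0.70 ± 0.20, and Sqstm1, a ubiquitin receptor of autophagy, fell by 0.59 ± 0.18. Psmg3 (0.64) and Rps27a (0.67) also rose over self-emptying loops. None of the 6 genes of transcriptional control passed in either comparison, Nfe2l1 standing at -0.28 and Nfe2l2 at -0.12 against sham ileum. None of the 5 activators and inhibitors and none of the 5 other proteasome-associated genes passed there.

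In self-emptying loops labelled IL10 knockout, 9 of the 33 passed against wild type, the 3 inducible subunits included. Of all genes, 9.53% passed there, 5.22% higher and 4.3% lower. The activators Psme3 (0.60) and Psme4 (0.48), Psmg3 (0.50) and Vcp (0.54), the ATPase that extracts ubiquitinated proteins, rose, while Sqstm1 fell by 0.61 and Nfe2l2, a regulator of oxidative stress genes, by 0.91. In self-filling loops with that label, Psme1, a subunit of the interferon-inducible activator, rose by 0.34 and the regulator Psmf1 by 0.46 over wild type. TLR4 knockout arrays had lower Rad23b, a shuttle that carries ubiquitinated proteins, by 1.26 in self-filling and 1.14 in self-emptying loops, lower Shfm1, a small lid subunit, by 0.61 and 0.48, and lower Usp14, a deubiquitinase of the proteasome, by 0.71 in self-filling loops. Psmf1 was higher there by 0.54 and 0.43. Psme3, a subunit of the nuclear activator, fell by 0.64 in self-filling loops, and Psmg2, a chaperone of core assembly, rose by 0.45 in self-emptying loops. In sham cecum Nfe2l1 rose by 0.79 ± 0.16 over ileum and Psme1 and the core assembly factor Pomp fell by 0.59 and 0.42.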

How the data were processed

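Members and gene lists were chosen with earlier results of these data known. Per the file headers, the authors deposited, for each of 25697 probes and 25 arrays, a non-normalized intensity (average bead signal, linear scale), a detection p-value and a number of beads. They also deposited log2 values of 17612 probes, which hold all 31 members. Set against the values used here, each log2 column fitted its own array best (lowest r 0.99999, largest difference 0.0951). The submitters' processing notes name limma, and for the scanner software the sources used here give no name.

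The function neqc of limma 3.58.1 (R 4.3.3, with statmod 1.5.0) subtracted background by normexp, using detection p-values to place it, added 16, equalised quantiles between arrays and took log2. For tables and plots, matplotlib 3.10.9, numpy 2.4.6 and pandas 2.3.3 were run in Python 3.11.15. Of probes detected at p under 0.05 on at least 3 arrays (15318), the one with the highest mean signal stood for its gene. Linear models with a mean per group over all arrays (17 residual and 3.93 prior degrees of freedom) gave changes with SE and p-values, adjusted by Benjamini-Hochberg over 11369 genes. The procedure was tested on simulated data with planted changes larger than most of the member changes, so recovery of changes of the size reported was not examined. Groups and replicate numbers come from the sample titles, and the description numbers of some samples differ. Named are up to 8 called members with the largest change per comparison (or the 2 smallest p), the highest and lowest member, up to 4 called genes of each pathway list, and members at the edge of detection. Further members are named to account for each role. Arrays of 1 group correlated at r of 0.968 to 0.992, and 0 pairs were identical. Alternatives were array weights, fits on the compared groups only, median scaling, no background correction, no detection filter, another probe choice, replicate and run blocks, the signal ratio as a covariate, trimmed members, the authors' log2 values and leaving out each array. No slide is given, so arrays were also grouped in runs of 8 code numbers, which does not show that they shared a slide.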

Additional observations from a re-analysis of the deposited data

Results flagged for a closer look

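Psmb4, a structural beta subunit, had a log2 level of 12.253 in wild type self-emptying replicate 4, apart from the other 3 arrays of that group at 12.417 to 12.432. The gap was 0.916 of the group's range, above the critical value of 0.829 for 4 samples. It was the only such array among 31 member groups of 4 examined. Chance gives about 1 in 20, so 1 flag among 31 groups is no more than chance would give.

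Sqstm1, the autophagy receptor for ubiquitin in the list of shuttle genes, was the only pathway gene whose change between filling and emptying differed between genotypes by the test of the difference itself. The change in loops labelled IL10 knockout minus that in wild type was 1.057 ± 0.245 (SE, adjusted p = 0.0274 in limma), from 0.63 in the former and -0.43 in the latter. Neither change passed by itself, and alternative fits are not given for this gene.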

How the results depend on the processing

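Leaving out each array in turn, the number of members called ranged from 3 to 9 for wild type self-filling loops against sham ileum, from 0 to 5 against self-emptying loops, from 2 to 8 for IL10 knockout against wild type in self-emptying loops, from 2 to 6 and from 2 to 4 for TLR4 knockout in self-filling and self-emptying loops, and from 1 to 2 for cecum. The median member change ranged from 0.317 to 0.364, 0.242 to 0.294, 0.266 to 0.367, -0.157 to -0.029, 0.021 to 0.111 and -0.02 to 0.057 in the same order. It ranged from 0.042 to 0.084 for self-emptying loops against sham ileum, from 0.013 to 0.184 for filling against emptying and 0.029 to 0.197 against wild type filling with the IL10 knockout label, from 0.051 to 0.182 for filling against emptying in TLR4 knockout, and for the differences of stasis change from -0.226 to -0.082 (IL10) and from -0.223 to -0.081 (TLR4). No member was called in these comparisons in any such fit. Counts of members called under alternative fits, here and below, have no share of all genes beside them. They therefore do not tell whether a fit called more genes in general.

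Median scaling in place of quantiles gave 20 calls for filling against emptying in wild type (6 in the report), 1 for IL10 and 1 for TLR4 knockout self-emptying loops and 0 for cecum. It gave medians of 0.666 for self-filling loops against sham ileum (all genes 0.161), 0.654 against self-emptying loops (0.212), -0.029 for self-emptying loops against ileum (-0.045), -0.24 for cecum (-0.098), 0.204 for IL10 knockout filling against emptying (0.025), -0.093 against wild type filling (-0.131), -0.363 for TLR4 knockout filling against wild type (-0.113), and -0.456 (-0.176) and -0.441 (-0.184) for the differences of stasis change in IL10 and TLR4 knockout. Psmd5 turned to 0.013 against sham ileum and to 0.230 against self-emptying loops, and Psmb1 to -0.067 in self-filling loops labelled IL10 knockout against wild type. Psmd5 against self-emptying loops was also 0.021 with the replicate block, and ranged from -0.108 to 0.021 when single arrays were left out (0.021 without wild type self-emptying replicate 4).

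With the signal ratio as a covariate 6 members passed in wild type self-filling loops against sham ileum, 0 against self-emptying loops (median 0.17), 1 for cecum and 2 for TLR4 knockout self-filling loops. Array weights gave 18 calls for IL10 knockout self-emptying loops, 10 (median -0.145) and 8 for TLR4 knockout self-filling and self-emptying loops, and 2 for the difference of stasis change in IL10 knockout. Without background correction there were 4 calls for cecum and 7 for TLR4 knockout self-emptying loops. Fits on the compared groups only gave 2, 1, 2 and 1 for wild type filling against emptying, cecum, IL10 and TLR4 knockout self-emptying loops. Without wild type self-emptying replicates 2 and 3, chosen after seeing the data, they were 0 for filling against emptying, 2 for IL10 and 1 for TLR4 knockout. TGANNNNGC, which includes TGACNNNGC, lay in 59.3% of member windows and 41.3% of all.

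The replicate numbers did not pair the samples: of 84 pairs of equal number, 21 correlated above 0.1 in their deviations (median -0.007), and 7 of 25 arrays were closest to one of their own number. With the replicate block 2 members passed for filling against emptying in wild type, 1 for cecum, 3 for IL10 and 2 for TLR4 knockout self-emptying loops. Runs of array numbers as a block gave 2 for filling against emptying and could not be fitted for TLR4 knockout against wild type. Of 873 settings for 48 single results, 694 kept direction and side of the threshold, 172 lost the call and 5 changed direction. Array weights made 2 pass, Psmd13 at -0.562 and Psmd9 at -0.947 in the difference of stasis change for IL10 knockout. The cause of these changes was not tested. Psmc6, Psmd6 and Psmd9 lie near background, which limits their values.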
